A study of Mus musculus with 6 samples.

Results

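The genes described here are the mouse zinc-finger protein genes whose symbol is Zfp followed by a number and nothing else, measured in bone marrow-derived macrophages. Of 327 such genes listed in at least 1 library, 190 had an expected count of at least 50 in every one of 6 libraries and were kept as members. Zfp36 was left out, because its product tristetraprolin is an RNA-binding protein with fingers of another kind. The members are 190 of the 17951 genes listed in the series.

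The study set 3 libraries of Pam3CSK4 plus DA against 3 libraries of Pam3CSK4, and this single comparison bears on how dopamine (DA), a catecholamine, alters gene expression in stimulated macrophages. In the Pam3CSK4 plus DA group, cells received DA for 2 h and then Pam3CSK4, a lipopeptide ligand of Toll-like receptors, for 6 h, and in the Pam3CSK4 group they received Pam3CSK4 for 6 h. In both groups the marrow came from 8-week-old wild-type C57BL/6 mice and was grown for 4 to 6 days with 10% L929 conditioned medium, which supplies the growth factor macrophages need, and 10% serum. The labels do not say whether the replicates came from separate mice or cultures, so each p-value reflects only how much the 6 libraries vary. No unstimulated cells were analysed here, so Pam3CSK4 levels here are those of stimulated cells.

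Most of these proteins carry C2H2 zinc fingers, small folds held by zinc in which a row of fingers reads a stretch of DNA. A large branch also carries a KRAB box near the amino end, which binds the corepressor Trim28 and through it brings Setdb1 and heterochromatin to the bound site. KRAB proteins are best known for silencing retroelements and for guarding imprinted genes, and their genes lie in clusters that arose by duplication. Members without a KRAB box are a mixed group of activators, corepressors, RNA-binding proteins and ubiquitin or SUMO ligases.

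The name was checked against translated GENCODE M21 transcripts. At least 1 C2H2 finger was found in 185 members, with a median of 10 fingers and up to 36. None was found in 5 members, namely Zfp330, Zfp503, Zfp703, Zfp781 and Zfp839. A KRAB box was found in 91 members and not in the other 99. The median number of fingers was 12 with a KRAB box and 7 without one. A SCAN domain, through which such proteins pair with each other, was found in 8 members. The KRAB call needed at least 12 of 34 residues identical to a consensus, and the diverged boxes of Zfp263, Zfp746 and Zfp180 did not reach it, so these genes stand with the members without a box.

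Members were chosen by their symbol and selected on the expected counts of all 6 libraries, so their levels are a description. Just inside it were Zfp11, Zfp775 and Zfp382, with lowest counts of 50.07, 52.0 and 53.69. Just outside it were Zfp692, Zfp61 and Zfp946, with lowest counts of 48.0, 48.0 and 46.03. A minimum over all libraries also sorts by direction. Among 18 Zfp-named genes with a mean of at least 50 and a lowest library under 50, the counts under 50 lay only in Pam3CSK4 libraries for 16 and only in DA libraries for 0, and 9 of the 18 were called higher with DA and 0 lower. Over all 283 Zfp-named genes that were tested, whatever their lowest count, 93 were higher (32.9%) and 37 lower (13.1%), beside 32.6% and 31.8% of all 12390 genes tested.

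The 6 libraries held between 21337932 and 21518425 expected counts. All 9 macrophage markers were listed, with a summed level of 21636.5 to 21999.9 CPM (counts per 1000000, scaled with TMM factors) in DA libraries and 28348.5 to 28419.1 CPM in Pam3CSK4 libraries, and 1 of the 9 was higher and 6 lower with DA. The neutrophil list summed to 476.9 to 506.2 CPM in DA libraries and 137.1 to 175.7 CPM in Pam3CSK4 libraries, with 1 of 8 markers higher and 2 lower. S100a8, the marker that was higher, averaged 406.3 CPM with DA and 63.5 CPM with Pam3CSK4, and made up most of the sum only with DA. The 2 lower markers were Ngp and Camp. Ngp averaged 61.3 CPM with DA and 68.1 CPM with Pam3CSK4, and Camp 6.62 and 9.35 CPM. The granule gene Elane averaged 0.876 CPM with DA and 0.966 CPM with Pam3CSK4 and was not called. The stromal list summed to 820.3 to 897.2 CPM with DA and 953.4 to 1005.0 CPM with Pam3CSK4. The T and NK cell list summed to 15.7 to 19.6 CPM with DA and 18.6 to 20.6 CPM with Pam3CSK4, with 0 markers higher and 1 lower. The dendritic cell list summed to 3.22 to 4.45 CPM with DA and 2.4 to 2.88 CPM with Pam3CSK4, with 1 higher and 0 lower. B cell and erythroid markers summed to at most 1.06 CPM in any library. Cd3g, Pax5, Hba-a2, Hbb-bs and Hbb-bt were not listed. The part of these differences in the values of the members was not tested, and in bulk libraries fewer cells of a type and less RNA per cell cannot be told apart.

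All 190 members entered the test across 12390 genes. With DA, 67 members were higher and 33 lower and 90 were not called, where a call means a Benjamini-Hochberg adjusted p below 0.05 in the quasi-likelihood test of edgeR. Over all genes tested, 32.6% were higher, 31.8% were lower and 64.4% were called either way. Among the members 35.3% were higher, a share near that background, and 17.4% were lower, for 52.6% called. Over the 9532 genes that also had 50 counts in every library, 33.2% were higher, 36.2% lower and 69.3% called either way. The members thus held about the background share of rises and a smaller share of falls, a difference given without a test. Their median log2 fold change (DA minus Pam3CSK4) was 0.12, against 0.02 over all genes tested and -0.01 over the genes with 50 counts in every library. Scaling changed the split: upper-quartile factors gave 93 members higher and 26 lower, with a median of 0.24 beside 0.14 for all genes tested. On the deposited FPKM values the test and the filter differ as well. There limma on log2(FPKM + 1) called 83 higher and 24 lower of the 171 members that passed its filter. Over all genes in that fit, 4229 were higher and 2858 lower. Without the filter, limma called 69 higher and 22 lower of all 190 members, beside 4713 and 3091 of all genes. The number of genes in each limma fit is not given here, so these counts over all genes give no background share. The median was 0.16 for members beside 0.08 for all genes with the filter, and 0.14 beside 0.02 without it.

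Changes were mostly small. A fold of at least 2 was reached by 2 members upward, Zfp608 and Zfp59, and by 5 downward, Zfp407, Zfp811, Zfp658, Zfp467 and Zfp131, where 7.34% of all genes tested rose and 7.48% fell that far, and 4.79% and 6.72% of the genes with 50 counts in every library. The middle of the members, from the 25th to the 75th percentile, lay between -0.11 and 0.35. The 3 DA libraries lay wholly above the 3 Pam3CSK4 libraries for 74 members and wholly below them for 36, while over all genes tested the shares were 34.7% above and 34% below, and over the genes with 50 counts in every library 34.7% above and 38.5% below. The summed level of the members was 3572.5 ± 90.7 CPM with DA and 3543.2 ± 93.7 CPM with Pam3CSK4 (SD, n = 3 each), and the libraries of the groups overlapped. On the deposited FPKM scale, which is not rescaled for composition, the sums were 1050.6 ± 17.3 with DA and 946.2 ± 22.7 with Pam3CSK4 (SD, n = 3 each).

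**Figure D1:**
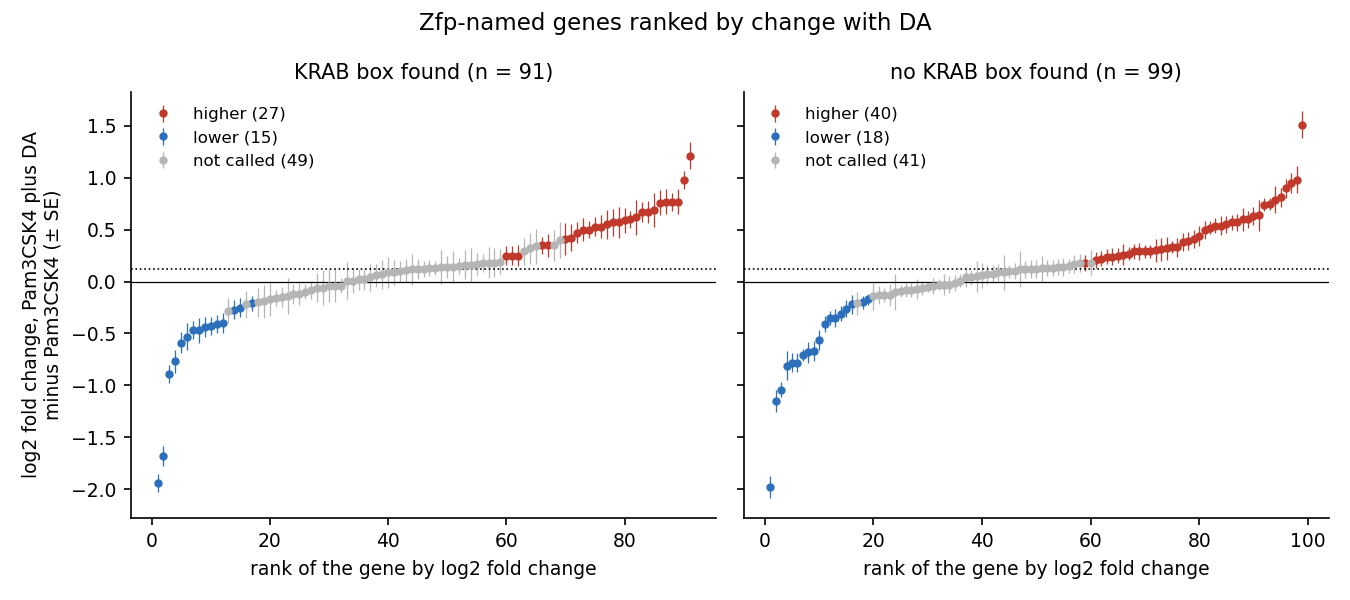
Each point is 1 member, placed by rank on the x axis and by its log2 fold change (Pam3CSK4 plus DA minus Pam3CSK4) on the y axis, with bars of ± 1 SE. Red points were called higher, blue lower and grey not called, and the dotted line is the panel's median, 0.12 for the 91 members with a KRAB box and 0.12 for the 99 without one.

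The largest rise was that of Zfp608, a paralog of Zfp609 that lies at chr18:54888048-54992555 on the minus strand of GRCm38 in GENCODE M21. Zfp608 had 13.9, 9.85 and 11.9 CPM in the DA libraries, against 4.38, 4.24 and 3.9 CPM in the Pam3CSK4 libraries. Every DA library stood above every Pam3CSK4 library, and the log2 fold change was 1.51 (SE 0.13; edgeR adjusted p = 2.12e-07). Zfp609, whose product binds the cohesin loader Nipbl and the Integrator complex, moved the other way. It had 12.9, 7.56 and 11.3 CPM with DA, against 20.6, 17.7 and 17.3 CPM with Pam3CSK4. The groups did not overlap, the second DA library being the lowest, and the log2 fold change was -0.81 (SE 0.14; edgeR adjusted p = 0.000204).

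Zfp59, a KRAB gene with 16 fingers, was the other member to rise by a fold of at least 2. Its levels were 10.4, 8.68 and 10.0 CPM with DA, against 3.56, 4.91 and 4.10 CPM with Pam3CSK4, a log2 fold change of 1.21 (SE 0.13; edgeR adjusted p = 1.22e-06). Zfp775, with 11 fingers and no KRAB box, lay close behind at 4.86, 5.40 and 5.68 CPM with DA, against 2.50, 2.84 and 2.73 CPM with Pam3CSK4. These 2 genes have low counts, and their groups are still clear of each other. Zfp52, a KRAB gene, had 26.5, 27.1 and 23.3 CPM with DA, against 14.1, 12.9 and 12.1 CPM with Pam3CSK4, and rose 1.97-fold. Zfp219, whose product works with the transcription factor Sox9 in cartilage, had 17.2, 15.9 and 19.6 CPM with DA, against 8.90, 9.15 and 9.27 CPM with Pam3CSK4. Zfp444 (log2 fold change 0.90), Zfp523 (0.81), Zfp691 (0.79), Zfp617 (0.77), Zfp954 (0.77), Zfp688 (0.77) and Zfp7 (0.76) completed the 12 largest rises, 6 of which have a KRAB box.

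The steepest fall was that of Zfp407, which has 22 fingers and no KRAB box and, at chr18:84128027-84589725 on the minus strand, the longest span of all members, 461.7 kb. Zfp407 is known to support insulin-stimulated glucose uptake in adipocytes. It had 10.1, 6.97 and 7.68 CPM with DA, against 35.5, 32.0 and 30 CPM with Pam3CSK4. Every DA library lay far below every Pam3CSK4 library, and the log2 fold change was -1.98 (SE 0.11; edgeR adjusted p = 1.77e-09). The KRAB gene Zfp811 fell almost as far, to 4.86, 5.17 and 4.86 CPM with DA, against 19.6, 18.8 and 18.6 CPM with Pam3CSK4 (log2 fold change -1.94, SE 0.0864; edgeR adjusted p = 1.28e-10). The KRAB gene Zfp658, with 21 fingers, had 4.45, 4.95 and 4.36 CPM with DA, against 13.8, 16.2 and 14 CPM with Pam3CSK4. In both KRAB genes the libraries of a group lay close together and the groups lay far apart.

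Zfp467, whose product favours the fat over the bone fate of marrow stromal cells, had 3.13, 3.51 and 3.32 CPM with DA, against 7.41, 7.41 and 7.37 CPM with Pam3CSK4, a 2.22-fold fall. Zfp131 had 27.7, 24.4 and 23.8 CPM with DA, against 56.1, 51.1 and 49.3 CPM with Pam3CSK4, a 2.06-fold fall. Both were clear of overlap. Zfp568 (log2 fold change -0.89), Zfp609, Zfp638 (-0.78), Zfp800 (-0.78), Zfp558 (-0.77), Zfp710 (-0.71) and Zfp148 (-0.68) completed the 12 largest falls, 4 of which have a KRAB box.

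**Figure D2:**
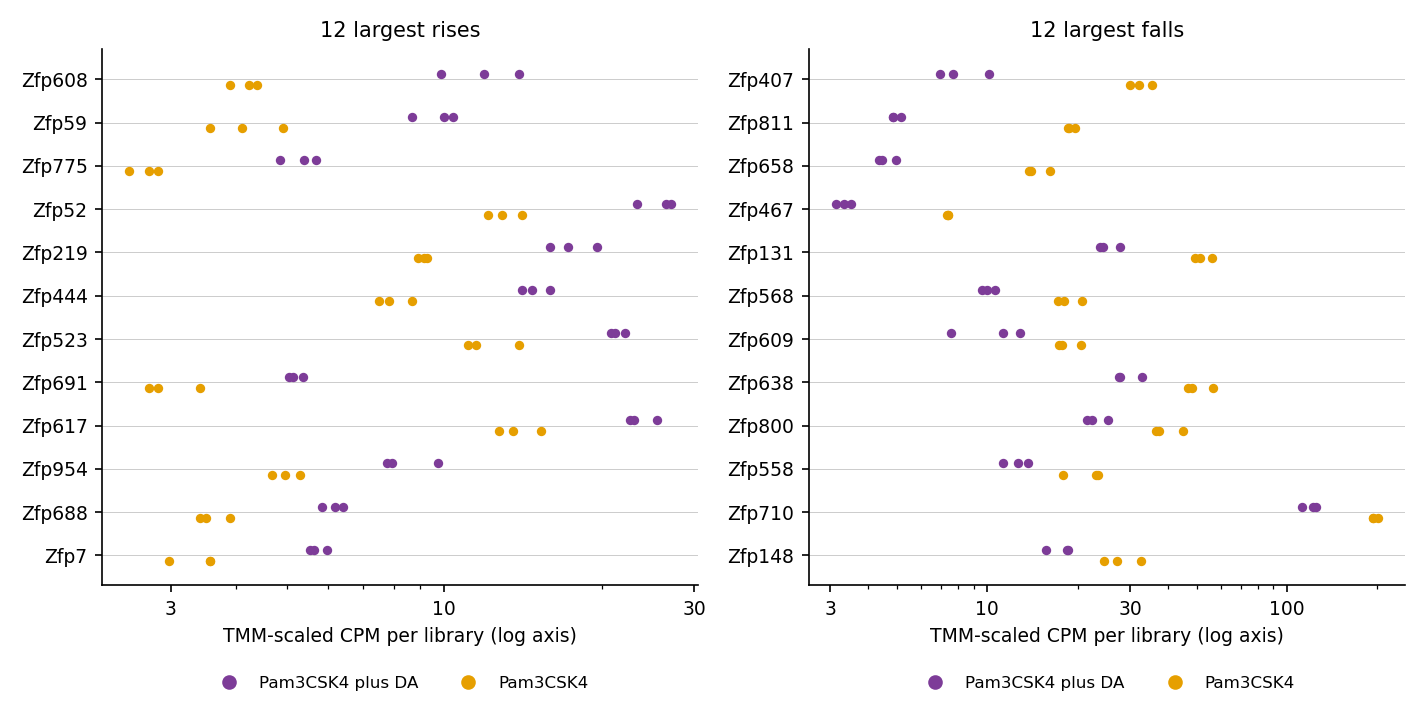
Each point is the TMM-scaled CPM of 1 library on a log axis, with Pam3CSK4 plus DA in purple above Pam3CSK4 in orange, for the 12 largest rises (left) and the 12 largest falls (right) among members called and without overlap between groups. Zfp608 is separated by a log2 fold change of 1.51 and Zfp407 by -1.98, and Zfp710 is the most abundant of the 24 genes.

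The DNA before the start of 6 of these genes is shown because Zfp59 and Zfp775 are among the largest rises, Zfp811 and Zfp658 are among the largest falls, and Zfp52 and Zfp53 are neighbours that both rose. The stretches of 120 bases come from RefSeq windows on GRCm38.p6, end before the gene as GENCODE M21 draws it, and run 5′ to 3′ on the strand of the gene. Capitals mark TGACNNNGC, the core of the element bound by NRF2, found on either strand. In all windows of 250 bases before to 50 after a start, 3 patterns were searched on both strands. They were TGACNNNGC, the cAMP response palindrome TGACGTCA, which cannot overlap it, and a loose form of the NF-kB site, GGG and CC with any 5 bases between them.
Zfp59, chr7:27838464-27838583, plus strand: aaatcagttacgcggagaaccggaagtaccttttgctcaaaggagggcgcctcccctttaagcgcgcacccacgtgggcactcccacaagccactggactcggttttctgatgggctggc
Zfp52, chr17:21535419-21535538, plus strand: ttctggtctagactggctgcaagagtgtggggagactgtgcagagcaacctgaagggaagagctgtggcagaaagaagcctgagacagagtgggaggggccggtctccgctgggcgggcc
Zfp53, chr17:21488746-21488865, plus strand: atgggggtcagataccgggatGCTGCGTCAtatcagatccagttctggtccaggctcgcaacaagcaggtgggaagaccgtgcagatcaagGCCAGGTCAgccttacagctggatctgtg
Zfp775, chr6:48601822-48601941, plus strand: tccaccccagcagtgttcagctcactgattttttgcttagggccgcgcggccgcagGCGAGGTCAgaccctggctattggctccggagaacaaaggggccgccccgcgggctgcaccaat
Zfp811, chr17:32809932-32810051, minus strand: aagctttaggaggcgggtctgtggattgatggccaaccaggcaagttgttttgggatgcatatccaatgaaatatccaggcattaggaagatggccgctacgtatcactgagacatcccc
Zfp658, chr7:43562136-43562255, plus strand: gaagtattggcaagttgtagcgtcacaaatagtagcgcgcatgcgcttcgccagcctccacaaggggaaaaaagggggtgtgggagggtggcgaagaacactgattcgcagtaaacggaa

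TGACNNNGC stands 2 times in the Zfp53 stretch and 1 time in that of Zfp775, and not in the other stretches shown. A RefSeq window was given for 158 members. TGACNNNGC was in the windows of 27 of them (17.1%), against 14% of 27025 genes, and it was in 10 of 54 members called higher and in 3 of 27 called lower. TGACGTCA was in 6 of the 158 (3.8%), against 2.03% of all genes, with 1 of 54 called higher and 0 of 27 called lower. The loose NF-kB form was in 108 of the 158 (68.4%), against 53.5% of all genes, and in 41 of 54 called higher and 18 of 27 called lower. A match here is a run of letters and not a bound site.

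The members with a KRAB box gave 27 higher and 15 lower of 91, and those without one gave 40 higher and 18 lower of 99, beside the background of 32.6% higher and 31.8% lower. Both had a median log2 fold change of 0.12, and the difference between these classes was not tested. They differed in level, which per length was 2.07 FPKM at the median with a KRAB box and 4.83 FPKM without one, while all genes tested had a median of 6.34 FPKM. The 8 SCAN members held 3 rises and 1 fall.

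**Figure D3:**
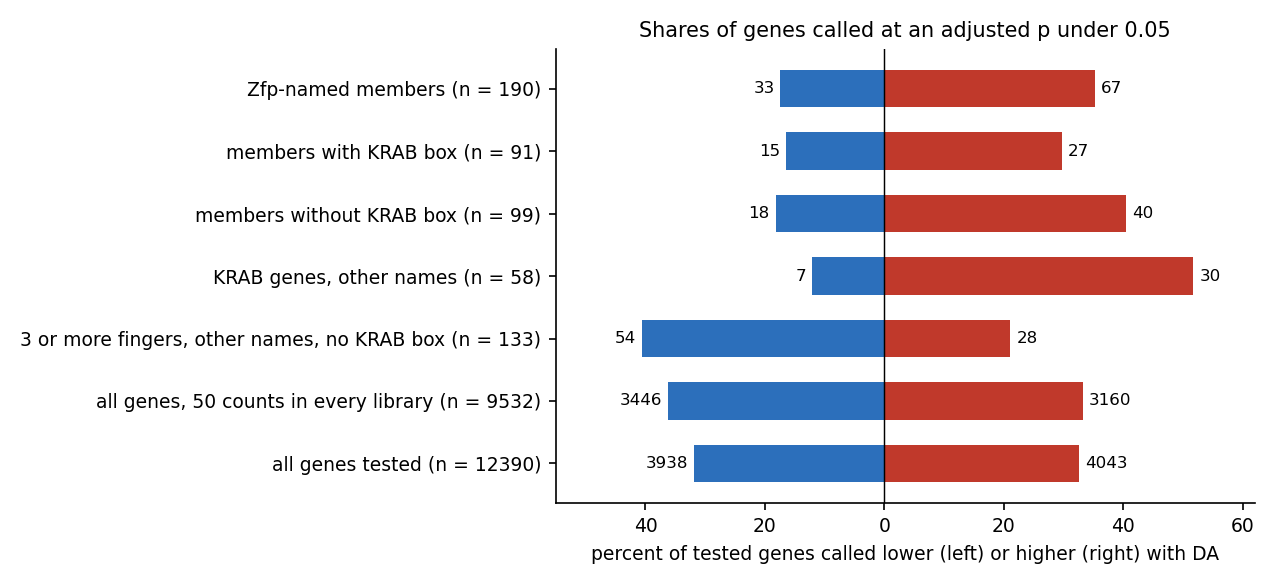
Bars give the percent of tested genes called lower (left, blue) and higher (right, red) with DA at an adjusted p under 0.05, with the number of genes at the end of each bar. The 190 members have 67 rises and 33 falls, while genes of at least 3 fingers with other names and no KRAB box have 28 rises and 54 falls of 133. Copies with identical values are counted separately among the KRAB genes with other names.

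Among KRAB genes with a known role, 8 were members, and 2 of them rose and 2 fell, which is 25% each way beside 32.6% higher and 31.8% lower over all genes tested. Zfp568, which represses a placental transcript of Igf2, had 10.6, 9.63 and 10.0 CPM with DA, against 20.7, 18.0 and 17.2 CPM with Pam3CSK4, and the groups did not overlap. Zfp932, a repressor of endogenous retroviruses, had 7.81, 8.68 and 7.23 CPM with DA, against 4.95, 6.07 and 4.68 CPM with Pam3CSK4, and rose 1.51-fold (edgeR adjusted p = 0.000663). Zfp90 fell (log2 fold change -0.43) and Zfp1 rose (0.41). The rise of Zfp1 rests on low counts with overlapping groups, and its call was lost without DA replicate 1 (0.35), without DA replicate 2 (0.33), without Pam3CSK4 replicate 1 (0.38) and without Pam3CSK4 replicate 3 (0.33). Zfp809, which silences retroviruses through the proline tRNA primer site, was not called at 0.40 (edgeR adjusted p = 0.0505), nor was the imprint guardian Zfp445 at 0.15 (edgeR adjusted p = 0.119). Both were called higher in some other settings. Among these were upper-quartile factors (0.52 for Zfp809 and 0.26 for Zfp445) and the fit without Pam3CSK4 replicate 1 (0.52 and 0.2).

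Among the 12 members with roles in RNA, ribosomes, the spindle or protein modification, 3 rose, 2 fell and 7 were not called, which is 25% higher and 16.7% lower beside 32.6% and 31.8% over all genes tested. Zfp638, which brings the HUSH silencing complex to unintegrated retroviral DNA, had 32.9, 27.6 and 27.8 CPM with DA, against 56.6, 48.3 and 46.6 CPM with Pam3CSK4, and fell 1.72-fold (edgeR adjusted p = 2.37e-06). Zfp326, a subunit of the DBIRD complex that links transcription with splicing, fell (log2 fold change -0.41). Zfp346, whose product binds double-stranded RNA, had 13.8, 13.9 and 13 CPM with DA, against 9.23, 7.99 and 9.03 CPM with Pam3CSK4, and rose 1.55-fold. Zfp106, an RNA-binding protein needed in motor neurons, rose 1.20-fold. The spliceosome-associated Zfp830 rose 1.16-fold, a call lost without Pam3CSK4 replicate 2 (log2 fold change 0.18, against 0.22 with all libraries).

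The ribosome factors of this set lay near 0. Zfp598, the ubiquitin ligase that senses collided ribosomes, had 41.9, 37.1 and 42.4 CPM with DA, against 39.8, 39.8 and 41.0 CPM with Pam3CSK4, a log2 fold change of 0.01 (SE 0.0662; edgeR adjusted p = 0.906). The sign of so small a value is not settled, and it was -0.02 without DA replicates 1 or 3. Zfp622 was at -0.08 (0.04 with upper-quartile factors) and Zfp593 at -0.13, neither called. Zfp91, a ubiquitin ligase that modifies the NF-kB kinase NIK, was at -0.09 (0.03 with those factors) with overlapping groups (edgeR adjusted p = 0.213). The SUMO ligase Zfp451 (0.09) and the nucleolar protein gene Zfp330 (0.15; edgeR adjusted p = 0.0502) were not called. With upper-quartile factors both were called higher (0.2 and 0.27), and so was Zfp330 with limma on log2(FPKM + 1) (0.23).

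Among 22 members on a list of other regulators, most of which act on DNA or chromatin, 10 rose and 4 fell, which is 45.5% and 18.2% beside 32.6% and 31.8% over all genes tested. Zfp703, a corepressor of the NET family, had 108.1, 100.1 and 108.8 CPM with DA, against 64.0, 61.8 and 63.1 CPM with Pam3CSK4, and rose 1.68-fold (edgeR adjusted p = 3.66e-08). Zfp746, a repressor of the PGC-1 alpha gene and a substrate of parkin, had 45.1, 43.1 and 44.5 CPM with DA, against 26.7, 24.8 and 27.8 CPM with Pam3CSK4, and rose 1.67-fold. Both genes were tight within a group, with every DA library far above every Pam3CSK4 library. Zfp143 of that list and its relative Zfp523, which is not on it, both activators, rose, with log2 fold changes of 0.24 (edgeR adjusted p = 0.00749) and 0.81 (edgeR adjusted p = 1.94e-06). Zfp652 (0.60), the G9a partner Zfp644 (0.44) and Zfp516 (0.29), an activator of brown fat genes, rose as well, beside Zfp608 and Zfp219.

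Weaker calls of that set were less stable. Zfp341, an activator of the STAT3 gene, rose by 0.32 on the log2 scale, a call lost without DA replicate 1 (0.23) and without Pam3CSK4 replicate 2 (0.27). The call of Zfp410, an activator of Chd4, at 0.18 was lost without DA replicate 1 (0.12) or 2 (0.20) and without Pam3CSK4 replicate 1 (0.17), 2 (0.20) or 3 (0.17). Zfp148, a GC-box binding factor, had 18.6, 15.7 and 18.4 CPM with DA, against 32.5, 27.0 and 24.6 CPM with Pam3CSK4, and fell 1.6-fold. Zfp217, a part of CtBP corepressor complexes, fell 1.24-fold. The fall of Zfp384 (-0.17) was lost with upper-quartile factors (-0.05), without DA replicate 3 (-0.15) and without Pam3CSK4 replicate 2 (-0.16). Its call was also lost in every limma fit on FPKM (-0.08 in each). Zfp281, a regulator of pluripotency genes, was not called at -0.13 (edgeR adjusted p = 0.121), nor were the Zmynd8 partners Zfp592 (-0.08, and 0.03 with upper-quartile factors) and Zfp687 (0.13). Others on the role lists that were not called were Zfp335 (0.14), Zfp110 (0.13), Zfp64 (0.07), Zfp318 (0.04) and Zfp24 (-0.03).

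By level per length, Zfp207, a spindle protein that binds Bub3, stood first with a mean of 85.2 FPKM over the 6 libraries, and Zfp263 second with 47.1 FPKM. Zfp207 had 86.42, 89.11 and 84.23 FPKM with DA, against 86.31, 84.91 and 80.25 FPKM with Pam3CSK4, with overlap, and it was not called (log2 fold change -0.03, and 0.08 with upper-quartile factors and 0.05 with limma on log2(FPKM + 1)). Zfp263 was not called either (-0.05, and 0.07 and 0.04 in those fits). Zfp710 followed, with 27.98, 25.21 and 26.85 FPKM with DA, against 40.68, 40.68 and 41.60 FPKM with Pam3CSK4, and fell 1.63-fold (edgeR adjusted p = 5.84e-08). Zfp513 and Zfp703 came next with means of 26.7 and 26.4 FPKM over the 6 libraries, and their order differed between the groups. Zfp513 had 25.3, 25.25 and 26.63 FPKM with DA, against 26.18, 27.89 and 29.13 FPKM with Pam3CSK4, with overlap on this scale. It lay below Zfp703 in every DA library and above it in every Pam3CSK4 library. Zfp703 alone of the 5 rose, to 34.63, 32.30 and 34.54 FPKM with DA, against 19.37, 18.63 and 18.75 FPKM with Pam3CSK4. In the edgeR test on counts Zfp513 fell by 0.20 on the log2 scale, a call lost with upper-quartile factors (-0.08) and without Pam3CSK4 replicate 3 (-0.15). The call was also lost in every limma fit on FPKM (-0.1 with log2(FPKM + 1)). The lowest member stood at 0.497 FPKM.

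Features of the members were set against the changes. The choice of members did not use them, except that the mean FPKM depends on the expected counts by which members were selected. Over all genes tested 32.6% were higher and 31.8% lower. Of 37 members that span less than 10 kb, 18 rose and 1 fell, and of 116 that span 10 to 30 kb, 41 rose and 21 fell. Of 19 that span 30 to 60 kb, 3 rose and 3 fell, and of 18 that span at least 60 kb, 5 rose and 8 fell. Across the 190 members, which are not independent replicates and share the 6 libraries, the Spearman correlation with the log2 fold change was -0.201 for the genomic span, -0.104 for the number of fingers and 0.001 for the mean FPKM. Of 30 members with 0 to 3 fingers 11 rose and 6 fell, of 41 with 4 to 8 fingers 22 rose and 8 fell, of 63 with 9 to 12 fingers 19 rose and 7 fell, and of 56 with at least 13 fingers 15 rose and 12 fell. The transcript length that the files give for a gene in each library was constant for most members and varied for 55. It did not overlap between groups for 10 members, beside 5.73% of genes listed in every library, and the largest shift was a ratio of 1.073, DA over Pam3CSK4, in Zfp655.

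Members lay on 20 chromosomes, with 47 on chromosome 7 and 23 on chromosome 17. Setting members in a chain where the start of each lies within 250 kb of the next gave 15 chains of at least 3, with 67 members. In 6 chains members were called higher and none lower, in 2 lower and none higher, in 5 both ways and in 2 none was called, where 32.6% of all genes tested were higher and 31.8% lower. One of the chains with falls alone, of 6 members on chromosome 13, rests on Zfp65 (-0.25), whose call was lost without DA replicate 3 (-0.21) and without Pam3CSK4 replicates 1 or 2 (-0.22 each).

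The chain at chr7:127233061-127615797 held 8 members, 7 of them called higher. Along the chromosome they were Zfp553 (log2 fold change 0.38), Zfp771 (0.54), Zfp768 (0.55), Zfp747 (0.47), Zfp764 (0.57), Zfp688 (0.77) and, after Zfp689 (0.14, not called), Zfp629 (0.26). Zfp768 had 15.8, 17.3 and 16.8 CPM with DA, against 10.7, 11.4 and 11.8 CPM with Pam3CSK4. Zfp688 had 6.18, 5.85 and 6.41 CPM with DA, against 3.41, 3.9 and 3.51 CPM with Pam3CSK4. In all 7 called members the DA libraries lay above the Pam3CSK4 libraries. Zfp747 and Zfp764 share 36.9% and 27.6% of their 50-base windows with another gene, so their values are uncertain. The call of Zfp629 was lost without DA replicates 1 (0.19) or 3 (0.23) and without Pam3CSK4 replicates 1, 2 or 3 (0.26 each). A KRAB box was found in 4 of the 8.

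At chr17:21450374-21588699 the KRAB genes Zfp51, Zfp53 and Zfp52, on the same strand, rose with log2 fold changes of 0.62, 0.67 and 0.98, and their neighbour Zfp948 did not (0.02). Zfp53 had 8.63, 7.47 and 7.82 CPM with DA, against 4.76, 5.59 and 4.68 CPM with Pam3CSK4. Zfp948 had 11.4, 9.0 and 9.82 CPM with DA, against 10.0, 9.58 and 10.1 CPM with Pam3CSK4, so its groups overlapped. Farther along, at chr17:32765496-33005457, the KRAB genes Zfp871 (-0.44), Zfp811 (-1.94) and Zfp799 (-0.53) fell side by side. In that chain Zfp870 was not called (0.35; edgeR adjusted p = 0.0518) and Zfp952 rose (0.42; edgeR adjusted p = 0.0121), a call lost without DA replicate 1 (0.35) and without Pam3CSK4 replicates 2 (0.36) or 3 (0.35).

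At chr7:6131491-6396915 all 3 members rose, Zfp787 (0.21), Zfp444 (0.90) and Zfp28 (0.35). The call of Zfp787 was lost without DA replicates 2 (0.19) or 3 (0.20) and without Pam3CSK4 replicates 1 (0.15) or 2 (0.21), and that of Zfp28 without DA replicate 1 (0.27). In another chain of chromosome 7, Zfp59 rose beside Zfp607, which had 8.36, 7.51 and 7.86 CPM with DA, against 10.3, 10.8 and 10.4 CPM with Pam3CSK4, and fell 1.33-fold. Zfp658 fell beside Zfp719 (-0.47), while Zfp715 of the same chain was not called (-0.15). Zfp568 was the only member called lower in a chain of 8, in which Zfp790 rose (0.25) and 6 were not called. That rise was lost without DA replicates 2 (0.22) or 3 (0.25) and without Pam3CSK4 replicate 3 (0.20). On chromosome 6, Zfp212 (0.25), Zfp777 (0.35) and Zfp746 (0.74) rose next to the uncalled Zfp282 (0.12), the call of Zfp212 being lost without DA replicates 1 (0.21) or 2 (0.23) and without Pam3CSK4 replicate 2 (0.16).

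**Figure D4:**
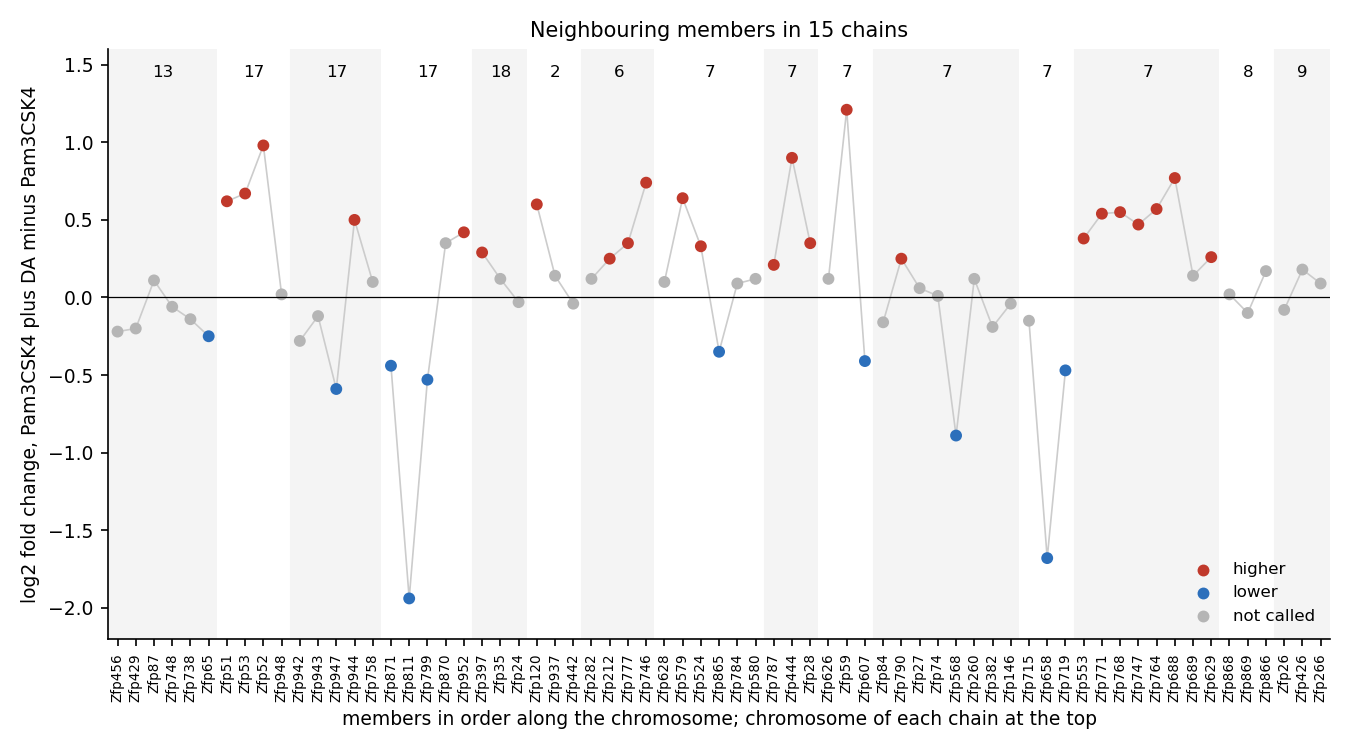
Points give the log2 fold change (Pam3CSK4 plus DA minus Pam3CSK4) of the 67 members in 15 chains of neighbours, in order along each chromosome, whose name stands at the top. Red is higher, blue lower and grey not called, and the chain with Zfp768 and Zfp688 has 7 of its 8 members called higher, at 0.26 to 0.77.

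The corepressors through which KRAB proteins act were counted as the other genes of the pathway. Of 25 genes on the corepressor and HUSH lists, 3 rose and 13 fell, beside 32.6% and 31.8% of all genes, with a median log2 fold change of -0.26. Trim28 itself had 79.1, 82.4 and 84.3 CPM with DA, against 80.2, 84.0 and 83.6 CPM with Pam3CSK4, and was not called (-0.01, SE 0.0544; edgeR adjusted p = 0.861). Setdb1, the histone methyltransferase that Trim28 brings in, was at -0.02 (SE 0.0705; edgeR adjusted p = 0.821). The groups overlapped in both genes.

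Dnmt3a, a DNA methyltransferase for new methylation, fell 2.44-fold, to 30.8, 28.5 and 29.8 CPM with DA, against 77.2, 68.9 and 71.4 CPM with Pam3CSK4 (edgeR adjusted p = 4.51e-10). Dnmt1, which maintains methylation after replication, rose 1.80-fold, to 47.7, 43.4 and 48.0 CPM with DA, against 26.8, 26.4 and 24.1 CPM with Pam3CSK4. These methyltransferase genes moved in opposite directions, each with no overlap between groups. The NuRD genes Chd4 (-0.66), Hdac2 (-0.64) and Hdac1 (-0.46) fell, and Chd3 was not called (-0.14; edgeR adjusted p = 0.0591). In the HUSH complex Pphln1 (-0.77), Fam208a (-0.50) and its partner Morc2a (-0.26) fell, and Mphosph8 (0.69) rose.

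Some members are uncertain because their reads could be shared. More than 20% of the 50-base windows of 9 members occur in another gene, among them Zfp781, Zfp433 and Zfp97 with 96.3%, 93.9% and 80.2%. Exons of Zfp784 and Zfp865, which lie on opposite strands, overlap each other, and Zfp335 and Zfp456 also overlap other genes by more than 20% of their exon length. Whether the counting used strand is not given in the sources used here. Without the members of shared or overlapping sequence, 65 of 177 were higher and 32 lower.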

How the data were processed

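Gene expression was measured by sequencing on a BGISEQ-500, per the labels, in 3 Pam3CSK4 plus DA and 3 Pam3CSK4 libraries. Groups follow the sample titles, since the source field spells the ligand differently in each DA library. The deposited files give for each gene expected counts, which the authors estimated and did not normalize, and FPKM, which the authors scaled by length and library size, per the file headers. Bowtie2 2.2.5 and GRCm38.p5 are named in the submitters' processing notes, while the quantifier is not given in the sources used here. Listed FPKM values begin at 0.01, and a gene not listed in a library was set to 0.

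The expected counts were rounded first. edgeR 4.0.16 (R 4.3.3) removed 5561 genes with filterByExpr, scaled the other 12390 with TMM factors and compared the groups with its quasi-likelihood test, adjusted by the Benjamini-Hochberg method over all genes tested at a threshold of 0.05. Standard errors are the size of the log2 fold change over the square root of F. The biological coefficient of variation was 0.0562, and libraries of a group differed beyond counting noise. Alternatives used DESeq2 1.42.0, limma 3.58.1 on log2(FPKM + 1) or log2(FPKM + 0.1), other scalings, filters and thresholds, a block for the replicate number, and fits without each library. KRAB, SCAN and C2H2 features come from translated GENCODE M21 transcripts, in place of the RefSeq proteins planned, and coordinates from its annotation of GRCm38.

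The members and gene lists were chosen with earlier results of these data known. Named are the 12 largest rises and falls among called members without overlap between groups, the 5 highest in FPKM, members of the role lists, genes around the threshold, partner genes and chain members.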

Additional observations from a re-analysis of the deposited data

How the results depend on the processing

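No called result changed direction under an alternative that was run, while 8 of 19 named genes that were not called changed sign in at least 1, among them Zfp207, Zfp263, Zfp622 and Zfp24 with upper-quartile factors (0.08, 0.07, 0.04 and 0.09, against -0.03, -0.05, -0.08 and -0.03). The median log2 fold change of the members was 0.24 with upper-quartile factors and 0.21 with limma on log2(FPKM + 0.1), against 0.12. Members at least 2-fold higher numbered 6 with upper-quartile factors, 0 with limma on log2(FPKM + 1) with or without the filter, 4 with limma on log2(FPKM + 0.1), 0 with at least 100 counts in every library and 10 over every Zfp-named gene tested, against 2. Members at least 2-fold lower numbered 3 in each limma fit and 3 with at least 100 counts, against 5. At least 100 counts in every library were reached by 137 members. Genes of the role lists called higher numbered 23 with upper-quartile factors, against 15, and genes of other zinc-finger names called lower numbered 10 with those factors, 9 with limma on log2(FPKM + 1), 9 with limma on log2(FPKM + 0.1) and 10 without its filter, against 16. The causes of these shifts were not tested. Over all genes tested, upper-quartile factors gave 5055 higher and 3138 lower. Over the genes in its own fit, limma on log2(FPKM + 1) gave 4229 and 2858. Of 67 rises and 33 falls, 53 and 26 kept their call without each library in turn, and 65 and 26 under each scaling. Over all 16 settings, 53 and 22 kept their call wherever they were tested. Losses given above for single genes are not complete. Some of these calls were also lost with the DESeq2 Wald test, without the count filter or with limma. Leaving out a library gave 58 to 65 rises and 27 to 35 falls. Same-numbered libraries deviated together with correlations of 0.249, 0.036 and 0.075, so the labels' numbers were not taken as pairs. With the replicate number as a block, all 100 calls were kept, and the counts were 74 higher and 36 lower. Of 61 named genes, 44 kept their side of the threshold throughout, 7 lost a call in some setting and 10 gained one. Those that gained a call were Zfp809, Zfp445, Zfp330, Zfp451, Zfp687, Zfp282, Zfp335 and Zfp110, as higher, and Zfp593 and Zfp281, as lower.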

Other observations

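Zinc-finger genes with names of other kinds are given here side by side, with no test between groups. These sets can share genes, so their counts are not separate. Zkscan1, Zkscan5, Zkscan6 and Zkscan17 are counted both with the Zscan and Zkscan genes and with the KRAB genes. Of 15 tested Zscan and Zkscan genes, whose products carry SCAN domains, 10 were higher with DA and 0 lower, with a median log2 fold change of 0.47, beside 32.6% higher and 31.8% lower over all genes tested. Zscan29 led them at 48.3, 41.4 and 44.0 CPM with DA, against 19.4, 17.2 and 19.9 CPM with Pam3CSK4 (log2 fold change 1.24; edgeR adjusted p = 5.55e-09). Of 58 tested KRAB genes with other names, 30 were higher and 7 lower, but many of these are recent copies, so the count is uncertain. In every library Gm14434, Gm14308 and Gm4724 have the same value as each other, and so do Gm8898 and Gm14431. Genes with low counts, such as Gm14391 (1.5, 0.99 and 2.05 CPM with DA, against 0.385, 0.53 and 0.0 CPM with Pam3CSK4), may have passed the filter only through DA libraries. The 30 and 7 are thus a description. Genes with at least 3 fingers, other names and no KRAB box had 28 of 133 higher and 54 lower with a median of -0.13. For these genes too, no KRAB box means only that none reached the cutoff of 12 of 34 identical residues. Zkscan3, Zkscan8 and Zkscan14 were not counted as KRAB genes. Zbtb genes gave 10 higher and 7 lower of 33, with Zbtb42 rising 3.79-fold, and genes of the Zc3h family, which bind RNA, gave 3 higher and 8 lower of 18.

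The Zfp36 family, whose products bind AU-rich elements in messenger RNAs, split. Zfp36, or tristetraprolin, had 289.5, 267.8 and 292.6 CPM with DA, against 571.3, 621.6 and 615.5 CPM with Pam3CSK4, a 2.13-fold fall (edgeR adjusted p = 5.58e-10). Zfp36l1 had 66.4, 64.8 and 67.0 CPM with DA, against 14.1, 14.2 and 13.7 CPM with Pam3CSK4, a 4.72-fold rise (edgeR adjusted p = 1.36e-12). Zfp36l2 rose 1.69-fold. The 3 genes were clear of overlap between groups.

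Among Zfp-named genes under the threshold, 26 of 93 tested were higher (28.0%) and 4 lower (4.3%), beside 32.6% and 31.8% of all genes tested. Zfp365 had 16, 12 and 13 expected counts with DA, against 1, 2 and 3 with Pam3CSK4. The imprint guardian Zfp57 had 21, 10 and 23 with DA, against 6, 8 and 8 with Pam3CSK4. In both genes counts of 10 or more lay only in DA libraries. Both may have passed the filter only through the group where they are high, so their calls are not given as support. Other genes with low counts can enter in the same way, so the 26 and 4 are a description. Zfp532, a partner of Zmynd8, had 38, 17 and 28 with DA, against 64, 57 and 54 with Pam3CSK4 (edgeR adjusted p = 0.000499). Zfp365 was chosen after its values were seen.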
